A study of Mus musculus with 8 samples.

Results

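The 6 conventional actin genes of the mouse (Actc1, Acta1, Acta2, Actg2, Actb and Actg1) were followed in RNA sequencing of cultured embryonic heart muscle cells with and without simvastatin. They were taken by symbol from the 49315 Ensembl genes of the count tables, and each of the 6 was found and passed the filter on low counts. Actin is the protein of thin filaments in muscle and of the filament network under the membrane of every cell. Actc1 encodes cardiac α-actin, Acta1 skeletal α-actin, Acta2 vascular smooth muscle α-actin and Actg2 enteric smooth muscle γ-actin, and these 4 are the muscle isoforms. Actb and Actg1 encode the cytoplasmic β- and γ-actins. The embryonic heart is known to transcribe smooth muscle and skeletal α-actin as well as cardiac α-actin. Free actin monomers hold the coactivators Mrtfa and Mrtfb outside the nucleus, and these coactivators act with the transcription factor SRF at CArG boxes, which several actin promoters carry.

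The libraries were 4 of cells in medium with 10 µM simvastatin and 4 of cells in control medium. All came from C57/Bl6 hearts at embryonic day 12.5, from male and female embryos pooled, and the labels name no allele beside the strain. Simvastatin inhibits HMG-CoA reductase and so blocks the supply of mevalonate, the precursor of sterols and of the isoprenoid lipids that anchor many signalling proteins to membranes. The labels describe cultured cardiomyocytes in one field and RNA of dissected hearts in another, and the sources used here do not give the time in simvastatin. Totals ran from 30474586 to 34993255 counts in simvastatin libraries and from 31457872 to 35215640 in control libraries. Set 1 holds replicates 1 and 3 of both groups and set 2 holds replicates 2 and 4, per the file headers, which do not say what a set was. The labels do not say whether replicates were separate cultures, and p-values therefore reflect the spread among these libraries alone, which could be technical.

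Cardiomyocyte markers were abundant in both groups. The 9 markers summed to between 46293 and 50674 CPM (counts scaled to the size of the library, with TMM factors) in simvastatin libraries and to between 40168 and 48776 CPM in control libraries. Of these, 1 passed as higher (Myh7, a myosin heavy chain) and 0 as lower. Without control replicate 2, and in a fit with set as a term, 2 passed as higher. In set 2 alone 1 passed as lower. Transcripts of other cell types were present too. Markers of smooth muscle and pericytes summed to between 684 and 848 CPM in simvastatin libraries and to between 898 and 1035 CPM in control libraries. Fibroblast markers summed to between 1236 and 1440 CPM with simvastatin and to between 1145 and 2541 CPM in controls. In bulk RNA, fewer cells of a type and less RNA per cell cannot be told apart.

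The start of each coding sequence is shown because it encodes the N-terminal stretch by which the isoforms are told apart. The first 36 bases, from the mouse GENCODE transcripts on GRCm38, have codons 2 to 6 in capitals for the muscle isoforms and codons 2 to 4 for the cytoplasmic ones, which encode the acidic tip and its neighbours.
Actc1: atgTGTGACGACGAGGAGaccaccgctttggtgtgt
Acta1: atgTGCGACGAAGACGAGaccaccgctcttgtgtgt
Acta2: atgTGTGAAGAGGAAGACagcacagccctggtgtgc
Actg2: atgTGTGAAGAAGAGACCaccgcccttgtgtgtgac
Actb: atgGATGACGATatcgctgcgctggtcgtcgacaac
Actg1: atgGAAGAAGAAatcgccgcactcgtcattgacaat
Over the whole coding sequence, this start included, the 6 genes are alike. Pairwise identity over the aligned coding bases ran from 81.9% (Acta2 with Actg1, and Actc1 with Actg1) to 88.7% (Actb with Actg1).

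That likeness bears on how far counts can be assigned to a gene. Of all runs of 50 bases in the transcripts, 0% for Actc1 and Actg2, 0.352% for Acta2 and 2.22% for Acta1 occur in any other gene. The share was 14.2% for Actb and 56.7% for Actg1, while runs shared with another of the 6 actins made up at most 2.57%. At 100 bases Actg1 still shared 51.1% with other genes, Actb 1.1% and the other 4 actins 0%. Actg1 shares its runs of 100 bases with 6 genes, mostly pseudogenes, and the 5 of them in the count tables held 1531 counts over the simvastatin libraries and 3199 over the controls. Actg1 itself held 65678 counts over the simvastatin libraries and 152226 over the controls. The sources used here do not say whether reads with several matches were counted, so the level of Actg1 is uncertain. The exons of Actg1 also overlap Gm23419 and Mir6935 over 543 bases.

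With simvastatin, 5 of the 6 actin transcripts were lower and 0 passed as higher (quasi-likelihood test of edgeR, p adjusted by Benjamini-Hochberg over 16126 genes, threshold 0.05). Of all genes tested, 9.61% passed as lower and 7.79% as higher. The same 5 genes were lower in every simvastatin library than in every control library, a separation found in that direction for 12.1% of all genes. The falls ran from 2.18-fold for Actg1 to 21.1-fold for Actg2. Only Actc1, the cardiac isoform, overlapped between the groups. No actin gene passed as higher with DESeq2 or limma-voom either, and in edgeR 0 of the 6 had an unadjusted p under 0.05 in that direction.

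**Figure D1:**
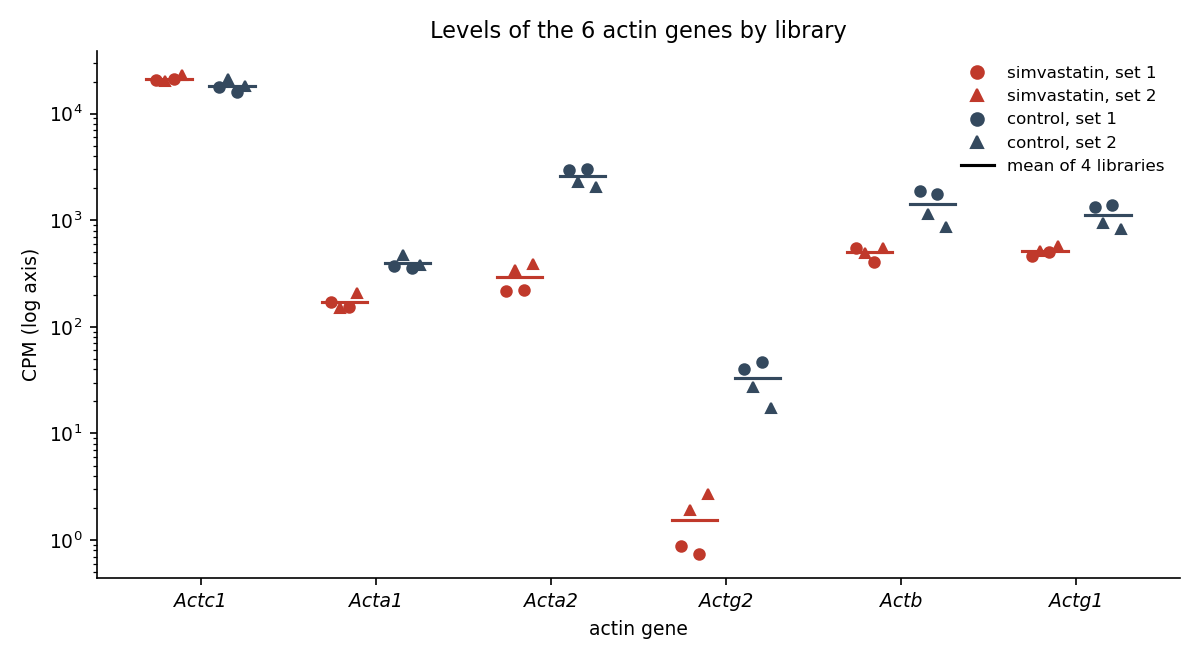
Level of each actin gene in each library, in CPM on a log axis, with simvastatin libraries (red) left of control libraries (dark), circles for set 1, triangles for set 2 and a line at the mean of 4 libraries. Actc1 overlapped between groups, with means of 21213 CPM with simvastatin and 18323 CPM in controls, while for each of the other 5 genes every red point lies below every dark one.

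Actc1 (chromosome 2, 114047282 to 114053548, minus strand, GRCm38) encodes the main actin of the cardiac sarcomere. It was at 20511, 20256, 20919 and 23165 CPM in simvastatin replicates 1 to 4, against 17798, 21335, 15835 and 18324 CPM in control replicates 1 to 4. Control replicate 2 lay above 3 of the 4 simvastatin libraries, and the other controls lay below all of them. The means were 21213 ± 1329 CPM with simvastatin and 18323 ± 2276 CPM in controls (SD, n = 4 each), and the log2 fold change of 0.21 ± 0.11 (SE) did not pass (edgeR adjusted p = 0.227). Per kilobase of exon, Actc1 was the most abundant of the 16126 genes in all 4 simvastatin libraries and in 3 of the 4 controls. In control replicate 3 it came second after Nppa, which encodes a natriuretic peptide.

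Acta1 (chromosome 8, 123891769 to 123894751, minus strand) encodes the actin of skeletal muscle, which is also transcribed in the fetal heart. Its level was 173, 151, 155 and 207 CPM in the simvastatin libraries and 372, 469, 360.1 and 377 CPM in the control libraries. The highest simvastatin library, replicate 4, was well below the lowest control, replicate 3. Acta1 averaged 171 ± 25.4 CPM with simvastatin and 395 ± 50.3 CPM in controls, 2.31-fold lower (log2 fold change -1.20 ± 0.13, edgeR adjusted p = 0.000147). Of 6 skeletal muscle markers 3 were tested, of which Tnni2 rose (log2 fold change 0.96, edgeR adjusted p = 0.0158). For Tnni2 the groups overlapped, with simvastatin replicate 2 at 5.93 CPM and control replicate 2 at 5.98 CPM. In set 2 alone 0 of the markers passed as higher. The list summed to between 14.4 and 26.4 CPM in simvastatin libraries and to between 10.4 and 20.8 CPM in controls. Of its myogenic transcription factors, Pax7 had 0 counts in every library, Myod1 reached 0.0968 CPM in 1 simvastatin library and Myf5 0.0296 CPM in 1 control. Myog had counts in every library and averaged 0.754 ± 0.241 CPM with simvastatin and 0.363 ± 0.194 CPM in controls (log2 fold change 1.04, edgeR adjusted p = 0.134).

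Acta2 (chromosome 19, 34241090 to 34255336, minus strand) encodes the α-actin of vascular smooth muscle and is an early actin of the forming heart. It was at 215, 338, 220.2 and 389 CPM in the simvastatin libraries and at 2972, 2263, 3025 and 2068 CPM in the control libraries. In controls the set 1 libraries were the higher pair, and with simvastatin they were the lower pair. The means were 291 ± 87.0 CPM with simvastatin and 2582 ± 488 CPM in controls, 8.88-fold lower (log2 fold change -3.15 ± 0.22, edgeR adjusted p = 2.04e-05). By size, this was the 38th largest fall of all genes tested.

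Actg2 (chromosome 6, 83512905 to 83536265, minus strand) encodes the γ-actin of enteric smooth muscle and was the rarest of the 6. Simvastatin libraries held 28, 66, 23 and 82 counts, or 0.882, 1.90, 0.742 and 2.70 CPM. Control libraries held 1424, 913, 1636 and 538 counts, or 40.6, 27.0, 46.8 and 17.4 CPM. The set 1 libraries were again the higher pair in controls and the lower pair with simvastatin. Actg2 averaged 1.56 ± 0.921 CPM with simvastatin and 33.0 ± 13.3 CPM in controls, 21.1-fold lower (log2 fold change -4.40 ± 0.45, edgeR adjusted p = 0.000116), the 13th largest fall of all genes. At 23 to 82 counts per library, its level with simvastatin is the least precise of the 6 actins.

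Actb (chromosome 5, 142903115 to 142906754, minus strand) encodes β-actin of the cell cortex and is often used as a reference transcript. It stood at 548, 493, 407 and 549 CPM in simvastatin libraries and at 1880, 1134, 1769 and 868 CPM in control libraries. The controls fell into a high pair from set 1 and a low pair from set 2, while the simvastatin libraries of the sets were interleaved. Its means were 499.6 ± 66.8 CPM with simvastatin and 1413 ± 490.0 CPM in controls, 2.83-fold lower (log2 fold change -1.5 ± 0.23, edgeR adjusted p = 0.0013). The fibroblast markers Col1a1, Col1a2, Col3a1, Dcn, Lum, Pdgfra, Tcf21 and Dpt split the controls in the same way. Col1a1 was at 638, 686, 575 and 525 CPM in simvastatin libraries and at 960.0, 493, 1223 and 508 CPM in controls. Postn, the remaining fibroblast marker, did not split them so, with 32.3, 24.5, 22.0 and 19.5 CPM in control replicates 1 to 4. Of 8 fibroblast markers tested 3 fell and 0 rose (edgeR), with 6 lower in set 1 alone and 0 lower and 3 higher in set 2 alone, and at most 1 passed as lower without simvastatin replicate 1 or 3 or control replicate 1 or 3. With set as a term 0 were lower and 1 was higher, and limma-voom called 1 as lower. The part of fibroblast transcripts in the Actb and Actg1 values was not tested.

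Actg1 (chromosome 11, 120345690 to 120348542, minus strand) encodes the cytoplasmic γ-actin, which differs from β-actin at a few N-terminal residues. Its values were 461, 519.7, 506 and 569.8 CPM in the simvastatin libraries and 1344, 936, 1375 and 821 CPM in the control libraries. As for Actb, the set 1 controls were the high pair. Unlike Actb, but like Acta2 and Actg2, the set 1 libraries were the lower pair with simvastatin. No simvastatin library reached the lowest control. Actg1 averaged 514 ± 44.9 CPM with simvastatin and 1119 ± 282 CPM in controls, 2.18-fold lower (log2 fold change -1.12 ± 0.17, edgeR adjusted p = 0.00114). The summed counts of the pseudogenes that share its sequence, given above, were lower over the simvastatin libraries too.

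The sum of the 6 genes overlapped between the groups. Actin counts made up 2.29 ± 0.138% of each simvastatin library and 2.36 ± 0.171% of each control library, and the ranges overlapped. The 4 muscle isoforms together reached 21676 ± 1410 CPM with simvastatin and 21332 ± 2018 CPM in controls. The 2 cytoplasmic isoforms together reached 1014 ± 83.9 CPM with simvastatin and 2532 ± 770.0 CPM in controls, with every simvastatin library below every control.

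What differed was the make-up of the actin pool. Actc1 took 93.6%, 93.1%, 94.2% and 93.1% of actin counts in the simvastatin libraries and 72.9%, 81.5%, 70.7% and 81.5% in the control libraries. Its share was thus higher in every simvastatin library, and the simvastatin libraries were more alike than the controls, in which the set 1 libraries had the lower share. The share of Acta2 averaged 1.27 ± 0.331% with simvastatin and 10.9 ± 2.33% in controls. Actb averaged 2.20 ± 0.277% with simvastatin and 5.95 ± 2.15% in controls, and Actg1 2.27 ± 0.119% with simvastatin and 4.72 ± 1.30% in controls. Acta1 averaged 0.752 ± 0.0684% with simvastatin and 1.65 ± 0.114% in controls, and Actg2 0.00674 ± 0.00364% with simvastatin and 0.139 ± 0.0597% in controls. Shares are bound to each other and are given as a description, with no test. Per kilobase, Actc1 held 95.3 ± 0.435% of actin with simvastatin and 80.7 ± 4.69% in controls.

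**Figure D2:**
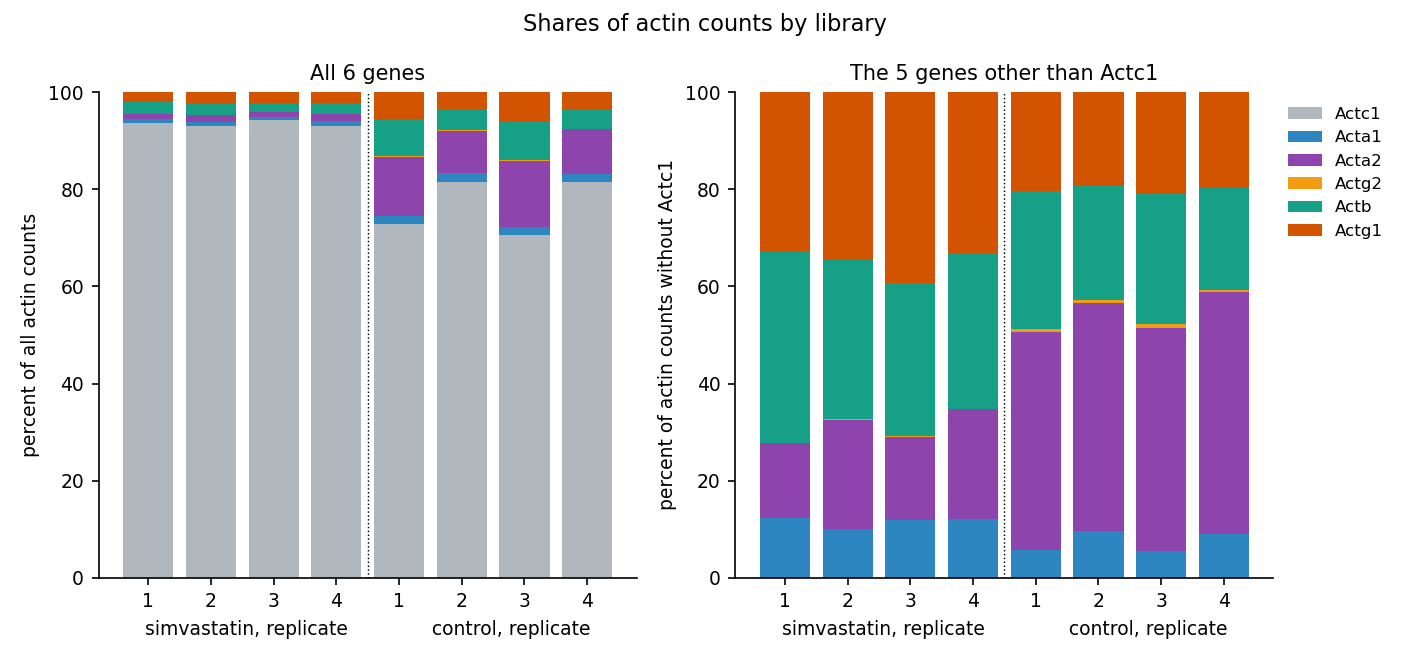
Stacked shares of actin counts in each library, in percent, with the 4 simvastatin libraries left of the 4 controls: left, all 6 genes, right, the 5 genes other than Actc1. Actc1 fills at least 93.1% of every simvastatin bar and at most 81.5% of a control bar, and in the right panel the Acta2 section is the tallest in every control bar but not in any simvastatin bar.

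With Actc1 left out of the total, the remaining 5 genes were divided differently. Acta2 made up 19.4 ± 3.73% of this remainder with simvastatin and 46.9 ± 2.09% in controls. Actg1 made up 35.0 ± 2.94% with simvastatin and 20.1 ± 0.668% in controls, Actb 33.9 ± 3.59% with simvastatin and 24.9 ± 3.39% in controls, and Acta1 11.6 ± 1.06% with simvastatin and 7.48 ± 2.24% in controls. The shares of Actb, Actg1 and Acta1 were therefore lower with simvastatin over all actin counts and higher over the remainder, while that of Acta2 was lower on both counts. The Acta2 share of the remainder was narrow in controls, from 45.0% to 49.8%, although the levels of Acta2, Actb and Actg1 were higher in both set 1 controls than in both set 2 controls.

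The order of the 5 minor isoforms also differed between groups on the scale of CPM per kilobase of exon. With simvastatin the mean levels were 13111 for Actc1, 193 for Actg1, 186.5 for Actb, 163 for Acta2, 111.5 for Acta1 and 0.999 for Actg2. In controls they were 11324 for Actc1, 1450 for Acta2, 527 for Actb, 421 for Actg1, 257 for Acta1 and 21.2 for Actg2. With simvastatin the ranges of Actg1 (173 to 214), Actb (152 to 205) and Acta2 (121 to 219) overlapped, as did those of Acta2 and Acta1 (98.2 to 134.5), so this order is not fixed beyond the spread. In controls only the ranges of Actb (324 to 702) and Actg1 (309 to 517) overlapped. These lengths count every annotated exon base of a gene, so levels of genes with rarely used exons are understated. For Actb (2679 bases) and Actg1 (2658) they exceed the GENCODE transcripts compared above (1920 and 1952 bases). For Acta2 the length of 1781 bases is below its transcript of 2035, so its level could be overstated. Whether Acta2 overlaps Actb and Actg1 with simvastatin can therefore depend on the length used.

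Ratios within a library show the same shift, again per kilobase and as a description. Actc1 stood at 65.5 to 105 times Acta2 in simvastatin libraries and at 5.76 to 10.4 times in controls. Against Acta1 the ratio of Actc1 was 106.5 to 128.5 with simvastatin and 41.7 to 46.2 in controls, with an SD of 2.04 around a mean of 44.1 in controls. Acta2 stood at 126 to 259.5 times Actg2 with simvastatin and at 56.5 to 104 times in controls. The ratio of Actb to Actg1 averaged 0.969 ± 0.158 with simvastatin and 1.23 ± 0.142 in controls, and its ranges overlapped.

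The treatment effect was examined in each set alone, since the sets differed in their control levels. In set 2 all of the same 5 genes were lower, against 11.5% of all genes there, and in set 1 all 5 were lower, against 5.91% of all genes (2 against 2 libraries, edgeR). The log2 fold change of Acta2 was -2.57 ± 0.10 in set 2 and -3.80 ± 0.13 in set 1. Acta2 was the one actin gene that passed in a test of the interaction of set and treatment (1.21 ± 0.15 for set 2 minus set 1, edgeR adjusted p = 0.0379), a call made for 0.0558% of all genes. Before adjustment the p of this edgeR test was 0.000124 for Actg2, 0.000581 for Actg1 and 0.00212 for Actb. For Actg2 the log2 fold changes were -3.28 in set 2 and -5.76 in set 1, and the difference of 2.47 ± 0.39 did not pass (edgeR adjusted p = 0.063). For Actb they were -0.94 in set 2 and -1.95 in set 1, with a difference of 0.99 ± 0.24 (edgeR adjusted p = 0.116). For Actg1 they were -0.69 in set 2 and -1.51 in set 1, with a difference of 0.80 ± 0.16 (edgeR adjusted p = 0.0788). Acta1 had -1.24 in set 2 and -1.18 in set 1, with a difference of -0.08 ± 0.23 (edgeR adjusted p = 0.958), and Actc1 had 0.13 in set 2 and 0.28 in set 1, with -0.17 ± 0.17 (edgeR adjusted p = 0.826). The call of each of the 6 genes was the same without any 1 library.

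**Figure D3:**
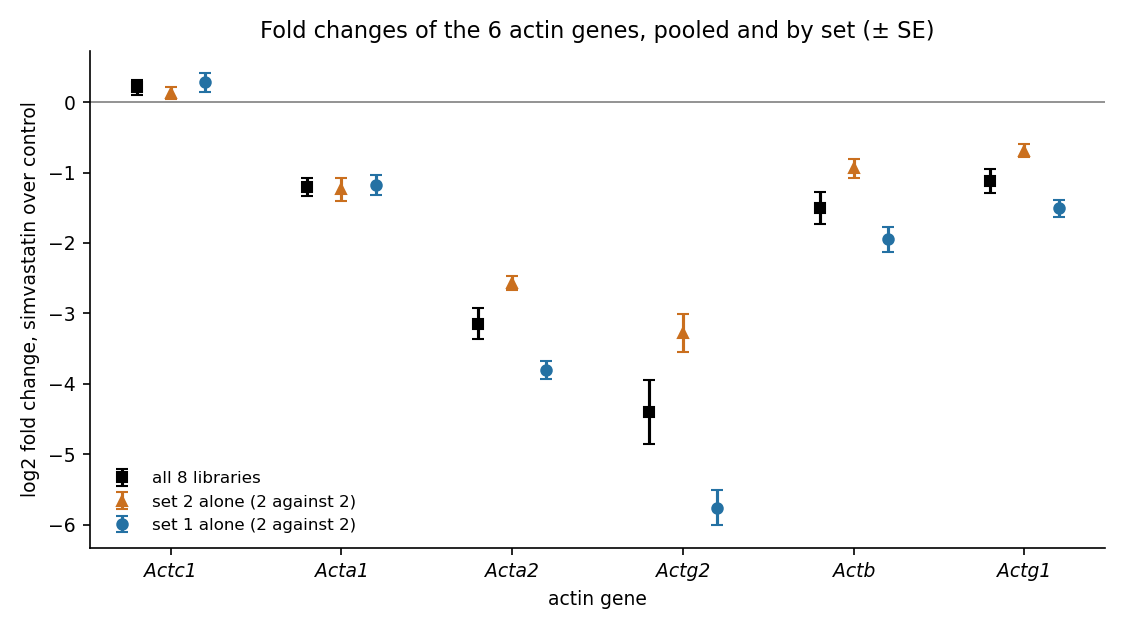
Log2 fold change of each actin gene, simvastatin over control, with SE bars, from all 8 libraries (squares), set 2 alone (triangles) and set 1 alone (circles). Acta2, Actg2, Actb and Actg1 lie higher in set 2 than in set 1, whereas Acta1 lies near -1.20 in each and Actc1 lies a little above 0.

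Promoters are shown for the members with an entry in the RefSeq table (GRCm38.p6), because SRF is known to bind actin promoters and 5 of the 6 actin transcripts were lower. Each run is the 120 bases before the RefSeq start, on the gene's strand. These starts differ from the starts of the genes as counted. The Actc1 run lies wholly inside the gene as counted (up to 114053548), and the Actg1 run partly (up to 120348542). The Acta1 and Acta2 runs begin some bases beyond the gene as counted. Distances, and whether an element falls in a window, therefore depend on the start used. Capitals mark a CArG box, or a CArG-like box with 1 G or C among its 6 central bases.
Acta1, chr8:123894776-123894895: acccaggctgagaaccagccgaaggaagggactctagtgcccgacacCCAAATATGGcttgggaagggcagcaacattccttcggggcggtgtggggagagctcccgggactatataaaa
Acta2, chr19:34255374-34255493: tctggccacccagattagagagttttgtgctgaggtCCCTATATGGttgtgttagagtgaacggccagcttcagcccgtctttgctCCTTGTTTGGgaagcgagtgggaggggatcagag
Actc1, chr2:114052876-114052995: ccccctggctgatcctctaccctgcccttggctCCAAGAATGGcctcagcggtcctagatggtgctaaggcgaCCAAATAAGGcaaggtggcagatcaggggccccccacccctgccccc
Actg1, chr11:120348496-120348615: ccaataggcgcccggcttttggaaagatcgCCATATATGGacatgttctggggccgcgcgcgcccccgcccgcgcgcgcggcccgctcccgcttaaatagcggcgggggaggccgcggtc
Over the 250 bases before the start, searched on both strands, Acta1 held a CArG box 73 to 64 bases upstream, Actc1 one 47 to 38 bases upstream and Actg1 one 90 to 81 bases upstream. Acta2 held 2 CArG-like boxes, 84 to 75 and 34 to 25 bases upstream, and no exact CArG box in this window. Actc1 held 3 CArG-like boxes and Acta1 held 2. Of 32851 mouse promoter windows of that length, 1.47% held a CArG box and 7.24% a CArG-like box. CATTCC, the element read by TEAD factors, was in the Acta1 and Acta2 windows and in 12.6% of all windows, and TATAAA was in the Acta1 window and in 12.4% of all. An exact CArG box was thus found for Actc1, Acta1 and Actg1 and not for Acta2, and Actb and Actg2 had no promoter entry. Whether these boxes had a part in the actin levels was not tested. A match of letters is not evidence that a factor was bound.

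Genes that make, bind or sense actin were read from lists, each set against a median log2 fold change of 0.01 over all genes tested. Counts in these lists stand beside the 9.61% of all genes that passed as lower and the 7.79% that passed as higher. Of 15 genes for actin folding (the CCT chaperonin and prefoldin), 0 were called in edgeR, DESeq2 or limma-voom, and the median was -0.12. Of 15 genes that bind monomers or turn filaments over, 3 rose and 0 fell, with a median of 0.13. Twf2 (twinfilin-2, which binds monomers and filament ends) averaged 74.4 ± 4.88 CPM with simvastatin and 56.7 ± 3.73 CPM in controls (edgeR adjusted p = 0.016), and Wdr1 and Gsn rose with log2 fold changes of 0.29 and 0.30. In set 1 alone 0 of the 15 passed and in set 2 alone 2, and without simvastatin replicate 2, 3 or 4 or control replicate 1 at most 1 passed. Of 9 genes of the Arp2/3 complex, which nucleates branches, Arpc3 alone rose (log2 fold change 0.35, edgeR adjusted p = 0.0322), but not in the fits without simvastatin replicate 1, 3 or 4 or control replicate 2 or 4. Of 8 actin-related protein genes tested 0 were called in edgeR and 0 in limma-voom, while DESeq2 called 1 in each direction and edgeR 1 as lower without control replicate 4. Actbl2 had 0 counts in every library.

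Of 10 smooth muscle contractile genes 7 fell and 0 rose, and the list median was -0.81 (log2). Tagln, the actin-binding protein transgelin, was at 10.1, 18.8, 11.9 and 23.9 CPM in the simvastatin libraries and at 197.5, 137, 194 and 108 CPM in the control libraries (log2 fold change -3.30 ± 0.30, edgeR adjusted p = 6.43e-05). Like Acta2, it was lower in set 1 than in set 2 with simvastatin and higher in set 1 among controls, but 67.9% of its exon bases overlap Pcsk7 or Gm48529, so its counts are uncertain. Cnn1, which encodes calponin, averaged 202.5 ± 22.0 CPM with simvastatin and 364 ± 36.4 CPM in controls, and Myl9, a myosin regulatory light chain, 1751 ± 158 CPM with simvastatin and 3041 ± 366 CPM in controls. Of 10 markers of smooth muscle and pericytes, 4 of which stand in the contractile list too, 9 were tested, 5 fell and Cspg4 rose. Their summed level ran below that of controls in every simvastatin library, as given above, and their part in the Acta2 and Actg2 results was not tested.

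Of 11 genes that cross-link or anchor filaments, 8 fell and 0 rose, and the list median was -0.95 (log2). Actn4, a non-muscle α-actinin, averaged 506 ± 80.1 CPM with simvastatin and 1216 ± 51.2 CPM in controls (log2 fold change -1.27 ± 0.12, edgeR adjusted p = 6.5e-05). Lcp1 and Pls3, which encode the bundling proteins L-plastin and T-plastin, had log2 fold changes of -1.02 and -0.95. Actn2, the α-actinin of the sarcomeric Z-disc, was not called, with 3973 ± 526 CPM with simvastatin and 4630.0 ± 702 CPM in controls (log2 fold change -0.22, edgeR adjusted p = 0.305). It was named after its value was seen. The count of 8 stood in set 1 alone, in set 2 alone and in each fit without 1 library.

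Of 11 genes of tropomyosins, which lie along the filament, and of tropomodulins and capping proteins, which bind its ends, 1 rose and 2 fell, and the list median was 0.02 (log2). Tpm4 averaged 222 ± 21.7 CPM with simvastatin and 473 ± 124.5 CPM in controls, and Tpm2 37.3 ± 2.91 CPM with simvastatin and 79.5 ± 25.0 CPM in controls, each with a log2 fold change of -1.09 (edgeR adjusted p = 0.00163 and 0.00397). Tmod1, which caps the pointed ends of sarcomeric thin filaments, averaged 630.2 ± 27.9 CPM with simvastatin and 472 ± 68.5 CPM in controls (edgeR adjusted p = 0.0243), and 32.6% of its exon bases overlap Tstd2. The Tmod1 call ended without simvastatin replicate 2 or 3 or control replicate 1. Of 14 formins and leiomodins, which nucleate unbranched filaments, 2 fell and 0 rose, or 1 rose without simvastatin replicate 4. Lmod1, the smooth muscle leiomodin, averaged 0.115 ± 0.0806 CPM with simvastatin and 1.75 ± 0.546 CPM in controls, and Diaph3 6.27 ± 0.697 CPM with simvastatin and 12.5 ± 1.14 CPM in controls.

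**Figure D4:**
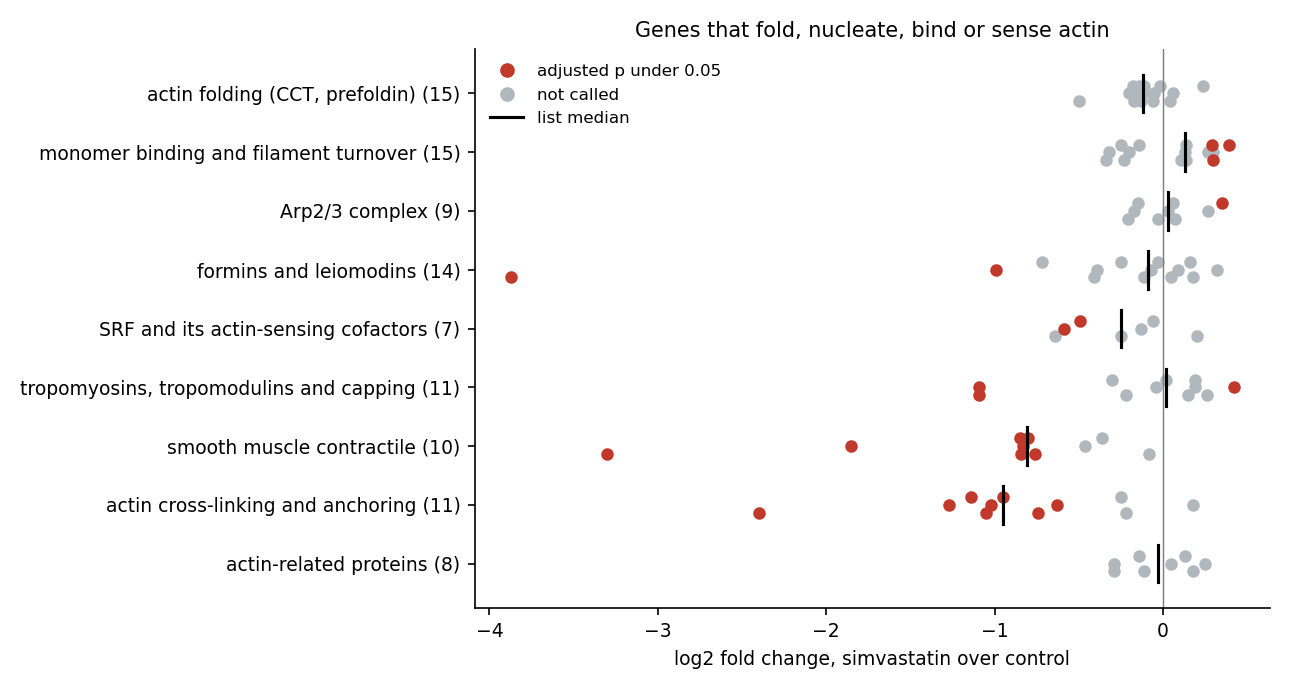
Log2 fold change, simvastatin over control, of each tested gene in 9 lists around actin, with the number tested in parentheses, red points for adjusted p under 0.05 and a black line at the list median. Smooth muscle contractile and cross-linking genes lie mostly left of 0, with medians of -0.81 and -0.95, and the other medians lie between -0.25 and 0.13.

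Of SRF and the 6 genes of its actin-sensing cofactors and their regulators, 2 fell and 0 rose, and the list median was -0.25 (log2). Mrtfa, the coactivator held by actin monomers, was at 9.42, 13.7, 10.8 and 7.90 CPM in simvastatin libraries and at 15.1, 14.9, 18.1 and 15.0 CPM in control libraries (log2 fold change -0.59 ± 0.18, edgeR adjusted p = 0.0442). Abra, an actin-binding activator of SRF in striated muscle, averaged 10.4 ± 1.04 CPM with simvastatin and 14.6 ± 1.66 CPM in controls (log2 fold change -0.49 ± 0.14, edgeR adjusted p = 0.034). Neither group overlapped the other for these genes, a separation found in that direction for 12.1% of all genes. The count of 2 dropped to between 0 and 1 without any 1 library and to 0 in either set alone. It was 3 with set as a term, 3 in DESeq2 and 2 in limma-voom. Srf itself had a log2 fold change of -0.64 ± 0.23 and did not pass (edgeR adjusted p = 0.0816). Mrtfb (0.20), Myocd (-0.13), Scai (-0.25) and Mical2 (-0.06) had log2 fold changes that did not pass.

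The genes whose profile was most like that of each actin were ranked by Pearson r of log2 CPM over the 8 libraries, among 9895 genes with a mean of at least 5 CPM. These values share the libraries and the treatment, so r is high for many genes that differ between the groups, and it is given as a description. Nearest to Acta2 were Pbk (r = 0.998), Pclaf (0.998) and Tagln (0.998), and nearest to Actg2 were Pimreg (0.999), Tagln (0.998) and Snai3 (0.997). For Actg1 they were Tpm4 (0.998), Cks1b (0.995) and Anxa1 (0.993), and for Actb Anxa3 (0.99) and Ly6e (0.989). Acta1 lay nearest to Plod2 (0.982), Pgm1 (0.982) and Fstl3 (0.98), of whose exon bases 47.3% overlap Prss57, and Actc1 to Sars (0.972), Zfp110 (0.963) and Pcnx4 (0.961). Measured as deviations from the group means, the correlation was 0.95 to 0.99 for Acta2, and likewise for Actg2, each with its 3 genes. It was 0.98 to 0.99 for Actg1, 0.94 to 0.95 for Actc1 and 0.65 to 0.78 for Acta1, each with its 3 genes. For Actb it was 0.95 with Anxa3 and 0.94 with Ly6e. These deviations still hold the differences between the sets.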

How the data were processed

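RNA of 8 libraries was measured as read counts per gene. The deposited counts were made by the authors with Trimmomatic 0.36, STAR 2.5.2b and featureCounts (Subread 1.5.2) on GRCm38 and mm10, per the submitters' processing notes. Exon lengths in bases are as deposited, per the file headers. The sources used here do not give the strand setting, the treatment of reads with several matches, the read length or the annotation release.

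Symbols for 99.3% of identifiers came from the GENCODE annotation of GRCm38, and 90.9% of genes had the same position there. Coordinates are as the files give them. Genes were filtered with filterByExpr (16126 kept of 32927 with any count) and tested with edgeR 4.0.16 (TMM, quasi-likelihood F test, treatment as the only term, two-sided, Benjamini-Hochberg at 0.05). The SE of a log2 fold change is its size over the square root of F. Set effects used the interaction of set and treatment, fitted in edgeR. Tested on simulated data, the edgeR step recovered fewer of the genes changed 4-fold than a first pass mark asked for, and the mark was then lowered. CPM are scaled counts with an SD over 4 libraries. Shares, ratios and likeness (log2 CPM with 0.5 CPM added) were described without a test. No 2 libraries of a group agreed within sampling noise.

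Alternatives were other scalings, DESeq2 1.42.0, limma-voom (limma 3.58.1), other filters, a replicate block, set as a term, each set alone and each library left out. The named genes were the 6 actins, 3 genes most like each (1 of these is not reported here), up to 3 members with the smallest p in each list around actin, all 7 genes of the SRF list, and markers. Members, lists and this rule were chosen with earlier results of these data known.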

Additional observations from a re-analysis of the deposited data

Results flagged for a closer look

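The Acta1 level in control replicate 2, at 469.4 CPM, stood apart from the other controls at 360.1 to 377 CPM. Its gap to the nearest control made up 0.848 of the range of the 4 controls, above Dixon's critical value for 4 samples. Among 42 sets of 4 values examined this was the 1 such case, and chance flags about 1 in 20. Without this library Acta1 remained lower with simvastatin (log2 fold change -1.11, edgeR adjusted p = 0.000426, against 9.39e-14 to 0.00546 over all alternatives).

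The fall of Acta2 differed between the sets. The log2 fold change, simvastatin over control, was higher by 1.21 in set 2 than in set 1 (edgeR interaction test, adjusted p = 0.0379), that is, the fall was smaller in set 2. In set 2, Acta2 averaged 364 CPM with simvastatin and 2166 CPM in controls. In set 1 it averaged 218 CPM with simvastatin and 2999 CPM in controls. The direction held in all 4 simvastatin libraries against all 4 controls. Levels of Tagln, Smtn, Pdgfrb, Rgs5 and Kcnj8 were also higher in both set 1 controls than in both set 2 controls. The same held for every fibroblast marker other than Postn. Not all members of their marker lists followed. Cspg4 and Abcc9 were lower in both set 1 controls, and Cnn1, Myh11, Notch3 and Postn did not split by set. The part of these genes in the Acta2 difference was not tested.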

How the results depend on the processing

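Each of the 6 actin genes kept its direction and its side of the threshold in all 20 alternatives: other scalings, tests and filters, the replicate block, set as a term, each set alone and each library left out. Log2 fold changes ranged from -1.31 to -1.11 for Acta1, -3.80 to -2.57 for Acta2, -5.76 to -3.28 for Actg2, -1.95 to -0.94 for Actb, -1.51 to -0.69 for Actg1 and 0.13 to 0.29 for Actc1, whose adjusted p lay between 0.118 and 0.435. Apart from Acta1 and Actc1, whose lowest or highest values came from fits without 1 library, the extremes came from each set alone. Counts over all genes moved more. Of 1256 genes higher and 1549 lower, set 1 alone gave 648 and 979 and set 2 alone 1103 and 1872 (the cause was not tested), and the fits without 1 library gave 817 (without simvastatin replicate 3) to 1115 higher. With Actc1 left out of the total, the difference in share, in percentage points, reversed to 4.13 for Acta1, 8.97 for Actb and 14.9 for Actg1. Over all actin counts it was -0.898, -3.75 and -2.45. Shares of a total are bound to each other, and Acta2 held 19.4% of this remainder with simvastatin and 46.9% in controls. With the replicate block, 944 genes were higher and 1187 lower, with 5 actin genes lower and 0 higher. Same-numbered libraries did not deviate together (correlations of -0.199, 0.051, 0.156 and -0.21), so the numbers were not taken as pairs. The filter left the median log2 fold change of all genes at 0.01, and no filter moved it to -0.105. Depth limits Actg2 with simvastatin (23 to 82 counts per library), and shared sequence limits Actg1.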

Other observations

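Actin genes differed in how much they varied within a group. With simvastatin the coefficient of variation of CPM over 4 libraries was 6.27% for Actc1, 8.74% for Actg1, 13.4% for Actb, 14.9% for Acta1, 29.9% for Acta2 and 59.2% for Actg2. In controls it was 12.4% for Actc1, 25.2% for Actg1, 34.7% for Actb, 12.8% for Acta1, 18.9% for Acta2 and 40.2% for Actg2. Actb, often used to scale other transcripts, thus varied over 868 to 1880 CPM among untreated libraries alone.

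The other marker lists moved in several directions (edgeR, adjusted p under 0.05), beside 9.61% of all genes lower and 7.79% higher. Of 8 endothelial markers Tek and Nfatc1 rose and Emcn fell, and of 6 epicardial markers Msln rose and Wt1 and Aldh1a2 fell. Of 6 macrophage markers tested, Cd68, C1qb and Adgre1 fell. Of 5 haemoglobin genes tested, Hbb-y, Hba-a2 and Hbb-bt rose, and the erythroid list summed to between 14.9 and 33.9 CPM in simvastatin libraries and to between 7.40 and 11.2 CPM in controls. Endothelial markers summed to between 205 and 244 CPM with simvastatin and to between 235.5 and 319 CPM in controls, epicardial markers to between 215 and 241 CPM with simvastatin and to between 163 and 248 CPM in controls, and macrophage markers to between 300 and 394 CPM with simvastatin and to between 347 and 438 CPM in controls. Leaving out 1 library in turn, 1 to 2 endothelial markers rose and 1 to 2 fell, 1 to 2 epicardial and 2 to 3 macrophage markers fell, and 1 to 4 haemoglobin genes rose, the lowest count being the fit without control replicate 3. Of these fits, the one without simvastatin replicate 1 alone gave 2 endothelial rises. Their part in the actin results was not tested.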
